A study of Mus musculus with 2 samples.

Results

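The mRNA levels of 10 genes of bone morphogenetic protein (BMP) signalling were compared between cultured mouse neural retinal progenitor cells (mNRPCs) and mouse retina tissue. The genes were listed by name, with no threshold on a value, and all 10 were present among the 31253 genes of the table. They were 4 Id genes (Id1, Id2, Id3 and Id4), 3 ligand genes (Bmp2, Bmp4 and Bmp7) and 3 receptor genes (Bmpr1a, Bmpr1b and Bmpr2). The mNRPC library was made from cells at passage 24 that had been isolated from the neural retina of adult mice. Per the study's methods they were grown on Matrigel in a defined medium with N2, B27, basic fibroblast growth factor and CHIR99021, which blocks the kinase GSK3. The other library was made from retina tissue, for which the labels give no treatment and no age. Both samples came from strain C57BL/6 mice, carried no genetic change named in the labels, and consisted of 1 library each, so that no difference could be checked against replicates and no p-value was calculated. The sample name points to 1 mNRPC line at 1 passage, whose values may not hold for other lines.

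BMPs are secreted ligands that bring type I and type II serine/threonine kinase receptors together. The activated type I receptor phosphorylates Smad1, Smad5 and Smad9, which enter the nucleus with Smad4, and the Id genes are classical direct targets of these Smads. Id proteins lack a DNA-binding region and hold E proteins away from tissue-specific bHLH factors, and in the developing eye BMPs are known for the patterning of the dorsal retina and for lens induction.

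Levels were given by the authors as FPKM, in which the fragments of a transcript are divided by its length and by the size of the library, so that levels of different genes can be compared. The log2 ratio of a gene is log2((mNRPC FPKM + 1)/(retina FPKM + 1)), so that positive values are higher in mNRPCs, and it understates the change of genes with low levels. A gene was compared if it reached 1 FPKM in at least 1 library, and was called higher or lower if its log2 ratio was 1 or more in size. From the size of the lowest values the depth was estimated at 6.50e+06 fragments for mNRPCs and 5.04e+06 for retina. Intervals in brackets are exact Poisson 95% intervals of the estimated fragments of a gene, or the exact interval of the ratio. They cover counting error only, since fragments without molecular identifiers are not independent molecules. Transcripts without a known length were given the longest known length of their gene. The estimated fragments and intervals of Bmpr1a, Bmpr1b, Bmpr2 and other genes with such transcripts rest partly on that length.

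Before the results the labels were checked against marker genes. All 8 progenitor and proliferation markers reached 1 FPKM in mNRPCs, and their summed level was 4027 FPKM in mNRPCs and 259 FPKM in retina. Vim, an intermediate filament gene, held 3138 FPKM of the mNRPC sum, and the eye field genes Pax6 (122.6 against 100.7 FPKM) and Six3 (39.7 against 33.2 FPKM) were within 2-fold. All 12 rod markers were lower in mNRPCs, with a sum of 22.6 FPKM against 27999 FPKM. The 8 Müller glia markers were also all lower (54.1 against 2053 FPKM). Of 7 pigment epithelium markers, 5 were listed at 0 in mNRPCs, with a sum of 0.0715 FPKM against 87.7 FPKM in retina. Of 8 endothelial markers, 4 (Cdh5, Tie1, Cldn5 and Esam) were listed at 0 in mNRPCs, and the list summed to 2.72 FPKM against 51.2 FPKM. Of the astrocyte markers, Gfap was listed at 0 in mNRPCs against 5.33 FPKM in retina. The study, however, reports GFAP in mNRPCs by immunofluorescence, and by RT-PCR at passages before and after this one. Pax2 was listed at 0 in mNRPCs and at 0.0669 FPKM in retina, where 3 fragments would be 0.137 FPKM, so it does not separate the samples. Nearly all of the astrocyte list's sum (172.9 against 201.6 FPKM) was Aldoc. The microglial markers Cx3cr1, P2ry12 and Aif1 were at 0 in mNRPCs as well. Among pericyte and fibroblast markers, Rgs5 was listed at 0 in mNRPCs against 8.16 FPKM in retina, Lum was at 0 in both libraries, and Pdgfrb was higher in mNRPCs (4.49 against 1.24 FPKM), whereas Col3a1 stood at 449.8 FPKM against 0.311 FPKM and made up most of the sum (457.7 against 14.2 FPKM). In bulk RNA a lower level can mean fewer cells of a type or less RNA per cell, and these cannot be told apart. The part of any of these cell types in the results that follow was not tested.

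The 4 Id genes moved in different directions. Id3 was 10.6-fold higher in mNRPCs than in retina, Id2 and Id4 were 5.76-fold and 4.85-fold lower, and Id1 was 1.98-fold higher, which left it just inside the 2-fold limit on the log2 scale. Together they stood at 271.7 FPKM in mNRPCs and 69.4 FPKM in retina, a 3.92-fold difference that Id3 alone carried, as the other 3 summed to 30.7 FPKM in mNRPCs and 46.6 FPKM in retina.

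Each Id gene lay in 1 transcript row of the table, so that its value did not depend on how fragments were divided between isoforms. In the GRCm38.p6 annotation of RefSeq, Id1 lies at chr2:152736251-152737410 on the plus strand, Id2 at chr12:25093799-25096092 on the minus strand, Id3 at chr4:136143822-136145392 on the plus strand and Id4 at chr13:48261116-48266028 on the plus strand. Exons of Id4 overlap exons of the antisense RNA gene A330033J07Rik and of Gm49291 on the other strand, and as no source used here states that counting used strand, their fragments cannot be told apart from those of Id4.

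As Id2 and Id4 were both lower in mNRPCs, the sequence before their start sites was read from RefSeq (GRCm38.p6). A window from 250 bases before to 50 bases after the start site was searched for the letters GGCGCC, a core found in Smad-bound elements of Id promoters. This word reads the same on both strands, as does the palindrome GTCTAGAC that was searched beside it, and the E-box CANNTG can share an end base with either word. Such overlaps were not counted. The windows of Id2 and Id4 each held 1 GGCGCC, that of Id2 also held 1 CANNTG, and that of Id3 held none of the 3 words. Sequence further upstream was not searched, so the absence of a word holds for the window only. Among the other members, the windows of Bmpr1a and Bmpr2, which were not called, also held 1 GGCGCC each, and it was in none of the 3 windows of Bmpr1b or in that of Bmp4. Windows of Id1, Bmp2 and Bmp7 were not used here. Over all 32851 windows of this length, GGCGCC was present in 11.9%, GTCTAGAC in 0.213% and CANNTG in 72.3%. Below is the stretch of each window that precedes every annotated exon, 5′ to 3′ on the strand of the gene, with GGCGCC in capitals. The Id2 stretch (chr12:25096254-25096342, minus strand, 89 bases) has the word 231 bases before the start site, and the Id4 stretch (chr13:48260866-48261115, plus strand, 250 bases) has it 148 bases before. A match of letters is a description of the window and does not show binding in either sample.
Id2: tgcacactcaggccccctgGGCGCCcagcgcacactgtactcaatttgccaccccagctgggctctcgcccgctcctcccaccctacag
Id4: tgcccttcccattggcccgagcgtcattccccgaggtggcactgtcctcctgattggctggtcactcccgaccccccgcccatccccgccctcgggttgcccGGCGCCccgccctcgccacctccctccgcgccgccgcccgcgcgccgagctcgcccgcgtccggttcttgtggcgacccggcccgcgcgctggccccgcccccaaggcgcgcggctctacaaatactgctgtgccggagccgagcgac

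Id3, known for its response to BMP and to serum, was at 240.9 FPKM in mNRPCs (230.5–251.7) and at 22.7 FPKM in retina (19.2–26.7). These rest on an estimated 2002 and 146 fragments, and the intervals are far apart. The log2 ratio was 3.35 ± 0.12 (counting SE) and the ratio of levels 10.6 (8.96–12.6). Id3 was the most abundant of the 10 genes in mNRPCs, at rank 328 among the 11076 genes with at least 1 FPKM there, and at rank 3410 of 12639 in retina.

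**Figure D1:**
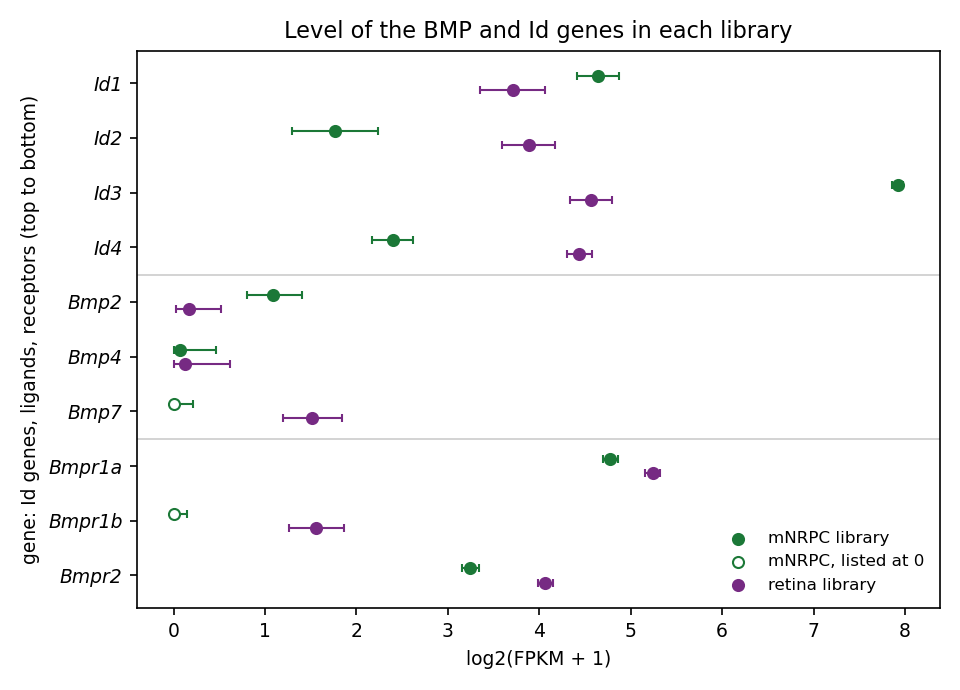
Level of each of the 10 genes (vertical axis) as log2(FPKM + 1) (horizontal axis) in the mNRPC library (green) and the retina library (purple), 1 point a library; bars are 95% Poisson intervals of the estimated fragments, and open points are genes listed at 0. Id3 in mNRPCs (240.9 FPKM) lies to the right of all other points, while Bmp7 and Bmpr1b are listed at 0 there.

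Id1, which is known to hold neural and vascular progenitors in an undifferentiated state, was at 24.1 FPKM in mNRPCs (20.3–28.3) and at 12.1 FPKM in retina (9.18–15.7). Its ratio was 1.98 (1.45–2.74) and its log2 ratio 0.93 ± 0.21 (counting SE), so that the intervals of the levels did not overlap but the 2-fold limit lay inside the interval of the ratio. Id1 thus passed from rank 5921 in retina to rank 3514 in mNRPCs without meeting the limit for a call.

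Id2 was the Id gene with the lowest level in mNRPCs, at 2.40 FPKM (1.46–3.71) against 13.8 FPKM in retina (11.1–17.0). It is known to bind the retinoblastoma protein besides E proteins. The level in retina was 5.76-fold that in mNRPCs (3.51–9.91), with a log2 ratio of −2.12 ± 0.27 (counting SE), and the mNRPC value rests on an estimated 19.8 fragments. Id4, which in the nervous system is known from neural stem cells and astrocyte-type glia, was at 4.26 FPKM in mNRPCs (3.49–5.15) and at 20.7 FPKM in retina (18.7–22.8). Its level in retina was 4.85-fold that in mNRPCs (3.91–6.07; log2 ratio −2.04 ± 0.13, counting SE). The intervals of both genes were apart between the libraries.

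The make-up of the Id group differed accordingly. In retina, Id3 held 32.8% of the summed Id level, Id4 29.8%, Id2 19.9% and Id1 17.5%, and the intervals of Id3 and Id4 overlapped. In mNRPCs, Id3 held 88.7%, Id1 8.86%, Id4 1.57% and Id2 0.883%. The level of Id3 was 56.6 times that of Id4 in mNRPCs and 1.10 times in retina. Relative to Id1, Id3 was 10.01-fold higher in mNRPCs and 1.87-fold higher in retina. These shares within a library do not change when a library is rescaled.

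**Figure D2:**
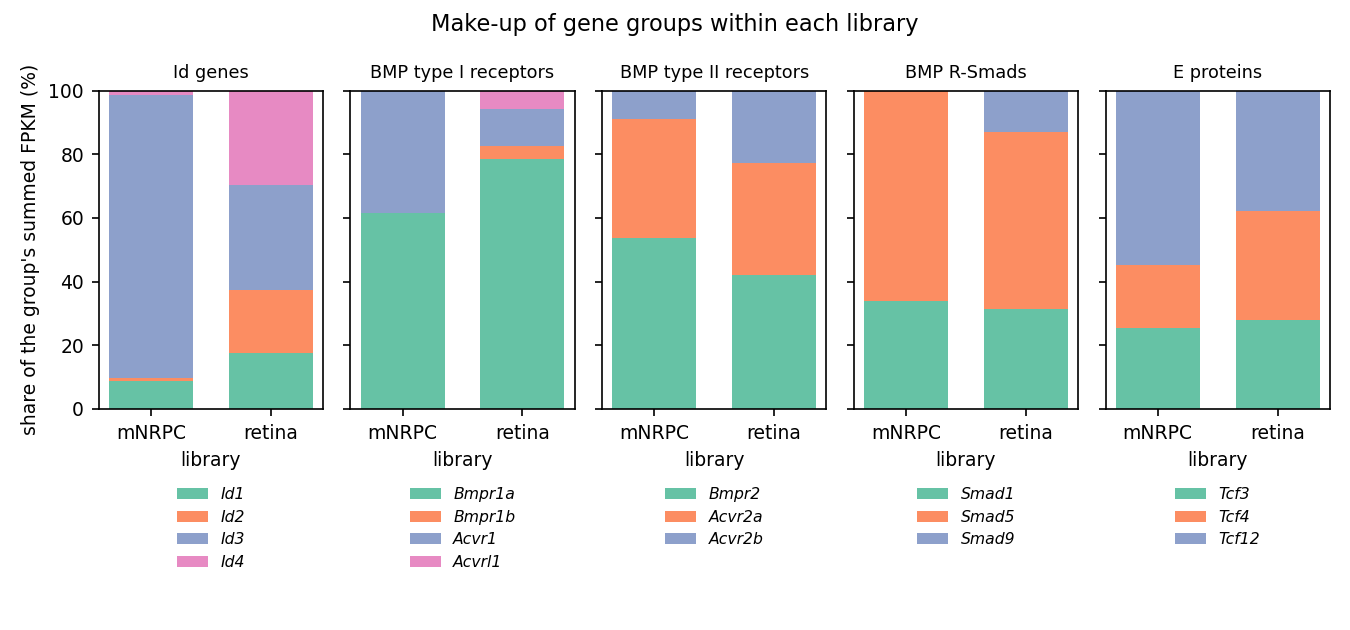
Share of the summed FPKM of a gene group (vertical axis, percent) held by each gene in the mNRPC and the retina library, for Id genes, type I receptors, type II receptors, the BMP Smads (Smad1, Smad5 and Smad9) and E proteins, 1 colour a gene. Id3 holds 88.7% of the Id group in mNRPCs and 32.8% in retina, where the 4 genes lie between 17.5% and 32.8%.

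The E proteins, the bHLH partners that Id proteins bind, were higher in mNRPCs for all 3 genes, where 24.5% of all genes compared were called higher. Tcf12 was at 132.5 FPKM in mNRPCs and at 18.3 FPKM in retina (log2 ratio 2.79), Tcf3 at 61.1 and 13.5 FPKM (2.10), and Tcf4 at 48.1 and 16.7 FPKM (1.47). With the most abundant row alone the call of Tcf4 was lost (0.82), and the log2 ratio of Tcf12 was 5.42. The E protein sum was 241.7 FPKM in mNRPCs and 48.6 FPKM in retina, 4.98-fold higher. The summed Id level was therefore 1.12 times the summed E protein level in mNRPCs and 1.43 times in retina, and without Id3 it was 0.127 times and 0.960 times. These are ratios of mRNA levels and not of proteins.

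By pattern over the 2 libraries, the genes closest to each Id gene were searched among the 8484 genes with at least 10 FPKM in 1 library, with the distance taken between log2(FPKM + 1) values. With only 2 points a pattern holds no more than a pair of levels. Id3 was nearest to Fads1, a fatty acid desaturase (distance 0.127), and Pdpn, a mucin-type membrane glycoprotein (0.158). Id1 lay nearest to Psmg2 (0.0248) and Hspa13 (0.0390), Id2 to Hip1r (0.0432) and Eepd1 (0.0506), and Id4 to Neurl4 (0.0243) and Braf (0.0426).

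The ligand genes were at low levels in both libraries, with a sum of 1.19 FPKM for Bmp2, Bmp4 and Bmp7 in mNRPCs and 2.07 FPKM in retina. Bmp2 made up nearly all of this sum in mNRPCs and Bmp7 nearly all of it in retina.

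Bmp2 (chr2:133552159-133562896, plus strand), a ligand that signals through Bmpr1a and Bmpr1b, was at 1.13 FPKM in mNRPCs (0.741–1.66) and at 0.128 FPKM in retina (0.0190–0.429). The retina value rests on an estimated 2.29 fragments and lies under the level of 3 fragments (0.168 FPKM), so that the ratio of 8.84 has a wide counting interval of 2.38 to 63.1. On the log2(FPKM + 1) scale the ratio was 0.92, within the 2-fold limit, and with 0.1 FPKM added in place of 1 it was 2.43 and past it. Bmp7 (chr2:172868012-172940321, minus strand), a ligand required for eye formation in mice, had a listed level of 0 in mNRPCs, where 3 fragments would be 0.126 FPKM, against 1.85 FPKM in retina (1.29–2.59; log2 ratio −1.51). Bmp4 (chr14:46383525-46390669, minus strand), required for lens induction, was at 0.0527 FPKM in mNRPCs and at 0.0917 FPKM in retina. Both values lay under the level of 3 fragments (0.224 and 0.289 FPKM), so that Bmp4 was not detectable at this depth in either library and was not compared. Exons of Bmp4 also overlap those of Gm15217 on the other strand.

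The other ligand genes were low as well, with a sum of 2.56 FPKM in mNRPCs and 4.38 FPKM in retina. Of 11 further BMP and growth differentiation factor genes, 9 stayed below 1 FPKM in both libraries. Bmp6 was higher in mNRPCs (2.46 against 0.267 FPKM, log2 ratio 1.45). Bmp5 was listed at 0 in mNRPCs against 2.11 FPKM in retina (−1.64). No ligand gene examined exceeded the 2.46 FPKM of Bmp6 in either library.

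Among the receptor genes, the type I receptor Bmpr1a and the type II receptor Bmpr2 were expressed in both samples within the 2-fold limit, and the type I receptor Bmpr1b was listed above 0 in retina only.

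Bmpr1a (chr14:34411061-34503336, minus strand), the main type I receptor for BMP2 and BMP4, was at 26.4 FPKM in mNRPCs (24.8–28.1) and at 36.8 FPKM in retina (34.7–39.0). The level in retina was 1.39-fold that in mNRPCs (1.28–1.52; log2 ratio −0.46 ± 0.06, counting SE), and it was the most abundant of the 10 genes in retina. In mNRPCs its interval overlapped that of Id1. Exons of Bmpr1a overlap those of the antisense gene Gm17110. Bmpr2 (chr1:59764279-59878081, plus strand), the type II receptor dedicated to BMPs, was at 8.49 FPKM in mNRPCs (7.88–9.14) and at 15.8 FPKM in retina (14.8–16.7). It was 1.85-fold higher in retina (1.68–2.04), with a log2 ratio of −0.82 ± 0.06 (counting SE). The ratio of Bmpr1a to Bmpr2 was 3.11 in mNRPCs and 2.34 in retina.

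Bmpr1b (chr3:141837135-142169585, minus strand), a second type I receptor for BMPs and for GDF5, was listed at 0 in mNRPCs in all 10 of its transcript rows. There 3 fragments would be 0.0863 FPKM. In retina it was at 1.94 FPKM (1.39–2.63; log2 ratio −1.56), which was spread over rows of 0.0547 to 0.360 FPKM. The sum of the gene is therefore firmer than any of its rows, and with the most abundant row alone the gene fell below 1 FPKM and its log2 ratio was −0.44.

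The transcript rows of the receptors did not all move alike. For Bmpr1a, the predicted transcript XM_006518469.2 was at 17.6 FPKM in mNRPCs and 14.6 FPKM in retina, and the curated NM_009758.4 at 7.03 and 9.42 FPKM. The predicted XM_006518470.2 was at 1.77 FPKM in mNRPCs and 12.8 FPKM in retina, 7.22-fold lower, and held 6.70% of the gene in mNRPCs and 34.8% in retina. With the most abundant row alone in place of the sum, the log2 ratio of Bmpr1a turned from −0.46 to 0.26, both inside the limit. For Bmpr2, NM_007561.4 held 58.1% of the gene in mNRPCs (4.94 FPKM) and 44.1% in retina (6.95 FPKM), and XM_006495633.1 the rest (3.56 and 8.81 FPKM). Division of shared fragments between rows is an estimate by the authors' program, and the share of a row is less certain than the sum of the gene.

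**Figure D3:**
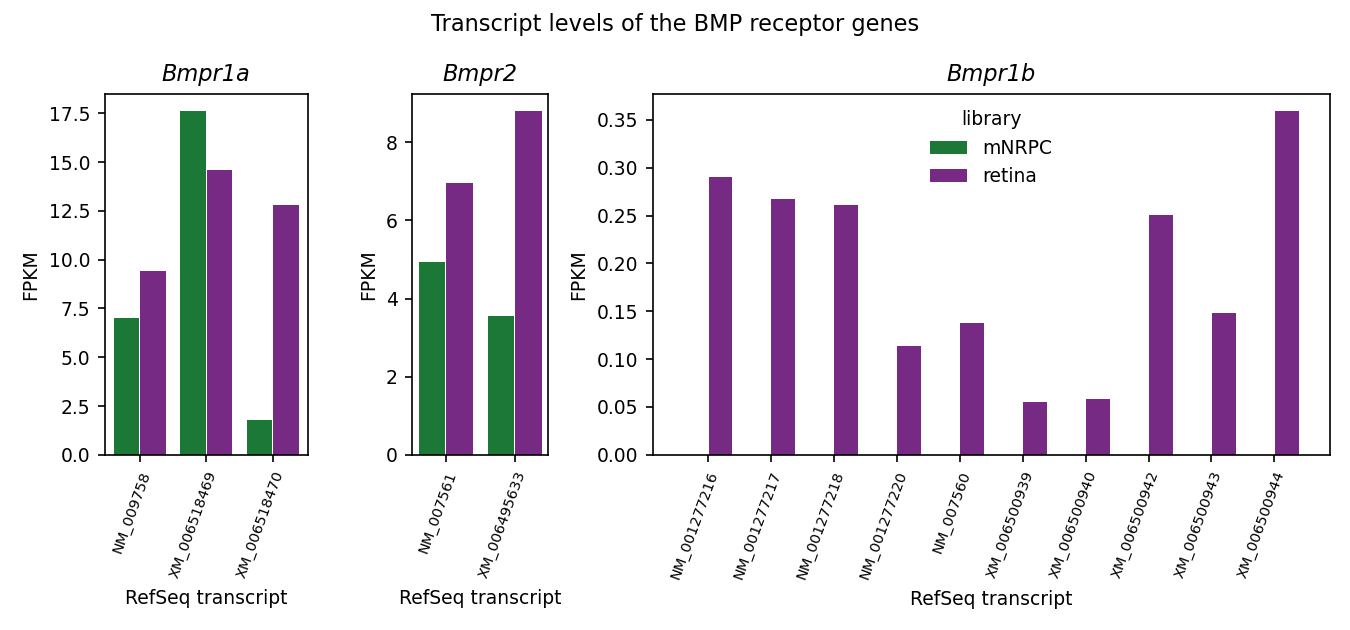
Level in FPKM (vertical axes, linear, on a scale of their own in each panel) of each RefSeq transcript row (horizontal axis, version left out) of Bmpr1a, Bmpr2 and Bmpr1b in the mNRPC (green) and the retina library (purple). The row XM_006518470.2 of Bmpr1a stands at 1.77 FPKM in mNRPCs and 12.8 FPKM in retina, and all rows of Bmpr1b are at 0 in mNRPCs.

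The study also ran quantitative PCR on mNRPCs, with embryonic and adult retinas as controls, and lists primers for both type I receptors. Its results are drawn as a heatmap, cannot be read from its text, and were not compared here. The primers are shown because they read different parts of these genes. Each pair was matched to the GENCODE M21 transcripts of its gene. The Bmpr1a pair matched 2 of 4 transcripts with a product of 102 bases, which in Bmpr1a-201 lies at bases 1256 to 1357 of 5956, inside the coding region. The Bmpr1b pair matched 1 of 5 transcripts, Bmpr1b-201, where its product of 91 bases lies at bases 4886 to 4976 of 5349, in the 3′ UTR. That transcript is NM_007560.4, which had 0 FPKM in mNRPCs and 0.137 FPKM in retina, 7.09% of the level of the gene there. The predicted transcripts of either gene were not searched, so the share of its mRNA that a pair reads is not known. The primers are given 5′ to 3′ in capitals.
Bmpr1a forward: GTTCGGCAGGTTGGTAAA
Bmpr1a reverse: GCTAGCTTCTTCAGTGGTAAA
Bmpr1b forward: GGCTCACAAGTCCCTAATAATC
Bmpr1b reverse: CATTGCCTTTCCATCCATAAAC

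The 4 other receptors that BMPs use were each past the 2-fold limit, as were 54.4% of all genes compared. Acvr1 (ALK2), a type I receptor for BMP6 and BMP7, was at 16.6 FPKM in mNRPCs and at 5.46 FPKM in retina (log2 ratio 1.45). Acvrl1 (ALK1), an endothelial type I receptor, was listed at 0 in mNRPCs against 2.70 FPKM in retina (−1.89), beside the endothelial markers given above. The type II receptors shared with activins were lower in mNRPCs. Acvr2a was at 5.93 and 13.1 FPKM (−1.03) and Acvr2b at 1.42 and 8.54 FPKM (−1.98). The call of Acvr2a was lost with curated rows alone (−0.57), and Acvr2b then had a log2 ratio of 0 and was below 1 FPKM. With the most abundant row alone Acvrl1 was below 1 FPKM (−0.85).

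Bmpr1a held the largest share of type I receptor mRNA in both samples, with 61.4% in mNRPCs and 78.5% in retina. Acvr1 held 38.6% and 11.6%, Bmpr1b 0% and 4.14% and Acvrl1 0% and 5.75%. The type I sum as deposited was 43.1 FPKM in mNRPCs and 46.9 FPKM in retina. Of the type II sum, which was 15.8 FPKM in mNRPCs and 37.4 FPKM in retina, Bmpr2 held 53.6% and 42.1%, Acvr2a 37.4% and 35.1% and Acvr2b 8.97% and 22.8%.

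In order of level, mNRPCs had Id3 first, then Bmpr1a and Id1, Bmpr2, then Id4, Id2 and Bmp2, with Bmp4, Bmp7 and Bmpr1b last. The neighbours Bmpr1a and Id1, Id4 and Id2, and Id2 and Bmp2 had overlapping intervals, as did Bmp4 and Bmp7, and Bmp7 and Bmpr1b. In retina the order was Bmpr1a, Id3, Id4, Bmpr2, Id2, Id1, Bmpr1b, Bmp7, Bmp2 and Bmp4, in which the intervals of Id3 and Id4, of Bmpr2 and Id2, of Id2 and Id1, of Bmpr1b and Bmp7 and of Bmp2 and Bmp4 overlapped.

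In total, 9 of the 10 genes were compared. Of these, 1 was called higher in mNRPCs (Id3), 4 lower (Id2, Id4, Bmp7 and Bmpr1b) and 4 neither (Id1, Bmp2, Bmpr1a and Bmpr2). Of all 13780 genes compared, 24.5% were called higher and 30.0% lower, and 54.4% either way. With 5 of 9 genes called either way, the share among the members was near that background. The median log2 ratio was −0.82 for the 9 genes and −0.12 for all genes.

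**Figure D4:**
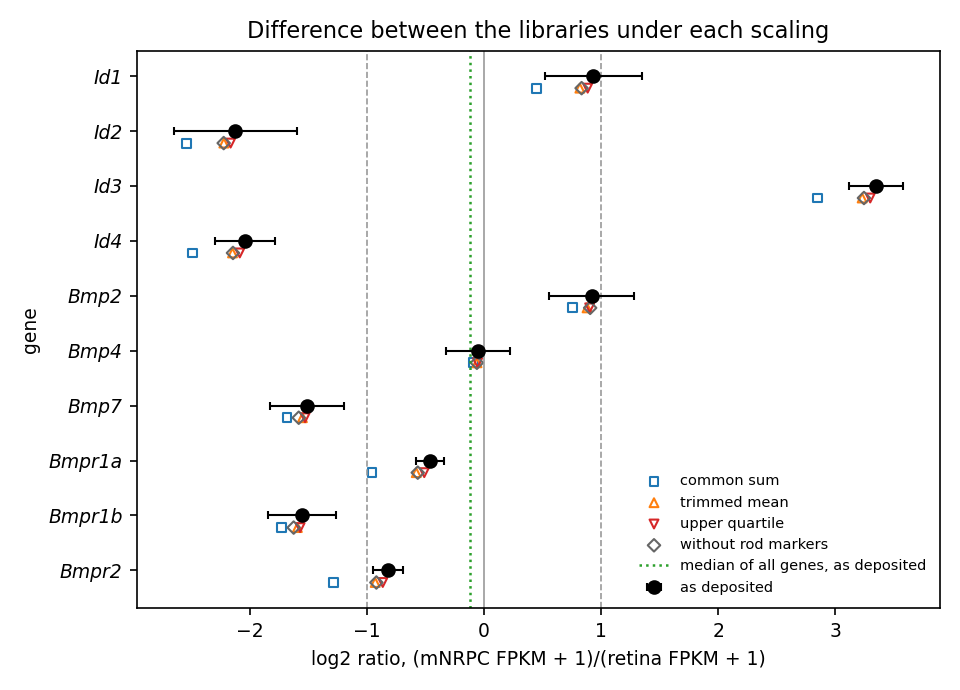
Log2 ratio (horizontal axis, mNRPC over retina, 1 FPKM added) of each gene (vertical axis) as deposited (black) and under each rescaling of the libraries (open symbols); bars are 95% counting intervals from the SE, dashed lines mark the 2-fold limit and the dotted line is the median of all genes as deposited. Id3 lies between 2.85 and 3.35 and Id2 and Id4 below −2 under every scaling drawn, while Bmpr2 crosses the limit after rescaling to a common sum.

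The FPKM values of the libraries summed to different totals, 616860 in mNRPCs and 432256 in retina, and rescaling to a common sum moved the median log2 ratio of all genes from −0.12 to −0.60. The share of higher among called genes was 44.9% as deposited and 31.2% after that rescaling. Taken against the all-gene median of each scaling used, the log2 ratio of Id3 was 3.45 to 3.47, that of Id1 1.05 to 1.06, that of Id2 at most −1.94, that of Id4 −1.92 to −1.89, that of Bmpr1a −0.36 to −0.34 and that of Bmpr2 −0.70 to −0.69. That of Bmp2 was 1.04 to 1.36, that of Bmp7 −1.39 to −1.08 and that of Bmpr1b −1.44 to −1.13, so that Id1 and Bmp2 passed a difference of 1 on this footing. After rescaling to a common sum, where 17.9% of all genes were called higher and 39.5% lower, Bmpr2 was called lower (−1.29) and Bmp2 fell below 1 FPKM. With 0.1 FPKM added in place of 1, where 26.5% of all genes were called higher, Bmp2 joined Id3. With a limit of 2 on the log2 ratio, which 11.2% of all genes passed upward and 14.1% downward, Id3 was still called higher and Id2 and Id4 lower. No member changed its direction with the scaling.

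Around these members, 64 further genes of the pathway were examined, of which 42 were compared. Of these 19 were called higher, 13 lower and 10 neither, beside 24.5% higher and 30.0% lower among all genes. The median log2 ratio was 0.57, against −0.12 for all genes. The list held 21 genes listed at 0 in mNRPCs and 9 in retina. They include the secreted antagonists, which bind BMPs or activins outside the cell.

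Of 16 antagonist genes 10 were compared, and 6 were higher, 3 lower and 1 neither (all genes: 24.5% higher, 30.0% lower). Their summed level was 393.9 FPKM in mNRPCs and 57.2 FPKM in retina, 6.89-fold higher. Beside it, Bmp2, Bmp4 and Bmp7 summed to 1.19 and 2.07 FPKM and the other 11 ligand genes to 2.56 and 4.38 FPKM. Fstl1, a secreted follistatin-like glycoprotein, was at 151.7 FPKM in mNRPCs and 7.58 FPKM in retina (log2 ratio 4.15), and Chrdl1, a chordin-like BMP antagonist, at 133.2 and 4.47 FPKM (4.62). Fst (follistatin), which binds activins and more weakly BMPs, was at 27.2 FPKM in mNRPCs and at 0.172 FPKM in retina, which is under the level of 3 fragments there (0.319 FPKM), and its ratio of 158 has a counting interval of 38.4 to 1900. Twsg1, which acts with chordin, was at 51.8 and 18.8 FPKM (1.42), Nbl1 at 16.0 and 6.99 FPKM (1.09), and Fstl3 at 9.93 and 2.86 FPKM (1.50). Of the lower antagonists, Sostdc1 was listed at 0 in mNRPCs against 1.80 FPKM in retina, and Dand5 was at 2.31 and 8.83 FPKM (−1.57). Noggin (Nog) was listed at 0 in mNRPCs and at 0.143 FPKM in retina, and chordin (Chrd) was at 1.14 and 2.10 FPKM (−0.53). After rescaling to a common sum the calls of Twsg1 (0.92) and Nbl1 (0.62) were lost, as were those of Acvr1 (0.99), Tcf4 (0.98) and Furin (0.78). The call of Nbl1 was also lost with trimmed mean scaling (0.98) and without the rod markers (0.996).

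Inside the cell, the Smads that carry the BMP signal differed gene by gene. Smad5 was at 22.7 FPKM in mNRPCs and 16.6 FPKM in retina (log2 ratio 0.43, and −0.06 after rescaling to a common sum). Smad1 was at 11.7 and 9.30 FPKM (0.30, and −0.17 after that rescaling), so that neither had a direction that held under every scaling. Smad9 was at 0.0226 FPKM in mNRPCs, under the level of 3 fragments, and at 3.83 FPKM in retina (−2.24), and held 12.9% of the sum of the 3 genes in retina and 0.0656% in mNRPCs. Smad4, the partner shared with TGF-β signalling, was at 87.8 and 19.8 FPKM (2.09).

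Of 7 intracellular inhibitors 6 were compared, and Ski, a repressor that binds Smads, was the 1 gene called, where 54.4% of all genes were called either way (13.6 FPKM in mNRPCs against 3.84 FPKM in retina, log2 ratio 1.59). The inhibitory Smad7 was at 6.82 and 3.60 FPKM (0.76), and Smad6, itself a BMP target, stayed below 1 FPKM in both libraries (0.262 and 0.694 FPKM). Bambi, a pseudoreceptor, was at 1.58 and 1.35 FPKM (0.13, and −0.17 after rescaling to a common sum).

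Among 5 co-receptor genes 4 were compared, of which 2 were higher in mNRPCs and 2 neither, beside 24.5% higher and 30.0% lower among all genes. The higher ones were Rgma and Rgmb, which bind BMPs at the membrane. Rgma was at 22.4 FPKM in mNRPCs and 2.77 FPKM in retina (2.63), and Rgmb at 5.92 and 1.45 FPKM (1.50). Neo1, a receptor for both, was at 25.5 and 15.6 FPKM (0.67) and was called higher with curated rows alone (1.53). Eng (endoglin), a co-receptor of endothelium, was at 0.130 and 1.04 FPKM (−0.86) and was called lower after rescaling to a common sum (−1.02) or with 0.1 FPKM added (−2.32). Of the proteases that mature BMPs or cleave chordin, Bmp1, which despite its name is a metalloprotease, was at 53.0 and 3.31 FPKM (3.65) and Furin at 32.8 and 13.03 FPKM (1.27), whereas Pcsk6 was listed at 0 in mNRPCs against 5.96 FPKM in retina, and Tll1 was at 0.414 and 2.16 FPKM (−1.16). With curated rows alone the log2 ratio was 1.31 for Rgma and 1.72 for Bmp1, both still called, and Tll1 was below 1 FPKM (−0.08).

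Genes outside the Id family that BMPs are known to induce were also examined. Of 12 such genes 7 were compared, of which 2 were higher, 3 lower and 2 (Smad7 and Bambi, given above) neither, beside 24.5% higher and 30.0% lower among all genes. Msx1 was at 34.9 FPKM in mNRPCs and at 0.144 FPKM in retina, which is under the level of 3 fragments there (0.308 FPKM), and its ratio of 242 has a counting interval of 54.1 to 3905. Runx2 was at 3.89 and 0.275 FPKM (log2 ratio 1.94), and its call was lost with the most abundant row alone (0.88). Lower in mNRPCs were Hey1 (0.184 against 6.57 FPKM), Tbx2 (4.79 against 23.0 FPKM) and Tbx3 (listed at 0 against 2.60 FPKM), of which Tbx2 and Tbx3 are known from the dorsal retina.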

How the data were processed

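RNA sequencing of 1 mNRPC library and 1 retina library was used, grouped by the labels. The deposited values are FPKM for 106754 RefSeq transcripts. The submitters' processing notes name TopHat, TopHat2 version 2.0.10 and build GRCm38.p3; the study's methods describe Bowtie 2 and FPKM estimation with eXpress, and a different sequencer from the series text, so that the steps the authors ran on these libraries are uncertain.

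Accessions were matched without version to RefSeq (GRCm38.p6), then GENCODE M21. A symbol was found for 69.6% of rows, with 93.2% of the FPKM in mNRPCs and 89.9% in retina, and rows were summed per gene. Values below 1e-06 were read as 0, and a gene at 0 is called listed at 0, since it can be a failed estimate. Following the study, 1 was added before the log2 transformation. Depth was estimated from the lowest FPKM of 6230 single-row genes of at least 1500 bp. With 500 bp it was 6.34e+06 and 4.86e+06 fragments, and with 2500 bp 6.46e+06 and 5.31e+06. A floor of 3 fragments was used. The steps were tested on simulated data. Python 3.11.15, pandas 2.3.3 and scipy 1.17.1 were used.

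The members and gene lists were chosen with earlier results of these data known. All 10 members were named, and of the other lists the genes with at least 10 FPKM in 1 library and a log2 ratio of at least 1 in size, the Smads, the receptors and target genes in both directions. Other named genes were chosen after their values were seen. Some genes enter counts and sums but are not reported here. Alternatives were another pseudocount, filter, limit, scaling or choice of rows.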

Additional observations from a re-analysis of the deposited data

How the results depend on the processing

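No member reversed a call under any alternative run. Of 79 values of the 10 genes under alternatives, 64 stayed within counting error and 15 moved. With 0.1 FPKM added in place of 1, 2 members were called higher (Id3 and Bmp2) in place of 1. With a limit of 2 on the log2 ratio, which calls fewer genes by construction, 1547 genes were higher and 1942 lower, against 3371 and 4130, 2 members were lower (Id2 and Id4), and of the other pathway genes 9 were higher and 4 lower, against 19 and 13. After rescaling to a common sum 2487 genes were higher and 5494 lower, 5 members were lower, and 14 and 15 pathway genes were higher and lower. Bmpr2 was also called lower with the most abundant row alone (−1.11), and its log2 ratio was −0.42 with curated rows. Bmp4 had no value when accessions were matched with their version. No paired analysis was possible because there was a single library on each side, and for the same reason none could be left out. At this depth a level under 3 fragments, as for Bmp4 in both libraries, cannot be told from 0.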
